A study of Rattus norvegicus with 21 samples.

Results

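The effect of diethylstilbestrol (DES), a synthetic estrogen, on gene expression was examined in the anterior pituitary gland of the inbred Copenhagen (COP) rat. The comparison set the 4 arrays labelled as COP DES-treated against the 3 arrays labelled as COP control, which together were 7 of the 21 arrays of the series. COP rats were males supplied by Charles River. At 9 weeks of age the DES group received a silastic implant filled with 5 mg of DES, and the control group received an empty one. The animals were killed at 21 weeks of age, 12 weeks after implantation, and BrdU, a label of replicating DNA, was injected at 50 mg/kg before death in all animals. RNA of single anterior pituitaries was read in 1 color on Rat Genome 230 2.0 arrays of Affymetrix. The other 14 arrays came from male ACI and Brown Norway (BN) rats under the same 2 treatments, with 4 DES and 3 control arrays per strain, and served for the common estimate of spread and for a comparison of responses at the end. Notes in the labels give each group 1 independent replicate less than its arrays, so each error below measures the spread between arrays, part of which may be technical.

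The anterior pituitary holds endocrine cells that each secrete their own hormone: lactotrophs prolactin, somatotrophs growth hormone, gonadotrophs the gonadotropins, thyrotrophs thyrotropin and corticotrophs the peptides of proopiomelanocortin. Estrogens act in this gland through nuclear estrogen receptors, raise the number of lactotrophs and the output of prolactin, and lower gonadotropin output through the hypothalamus and the pituitary itself. Prolonged estrogen treatment produces prolactin-secreting pituitary tumors in some rat strains, and folliculostellate cells, macrophages, endothelium and fibroblasts share the gland with the endocrine cells.

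Of 31042 probe sets 21859 had enough signal to be tested, and 11751 genes were represented by 1 probe set each. In COP pituitary 2542 genes, or 21.6% of those tested, were called higher with DES and 3296, or 28.0%, were called lower at an adjusted p under 0.05 with limma. At a change of 2-fold or more 961 genes (8.18%) were called higher and 1241 (10.6%) lower. The 4 DES values and the 3 control values did not overlap for 6485 genes, or 55.2%. Signals are in array units, and fold changes were taken after 16 units were added, which understates the change of dim genes. Array medians ran from 127 to 137 units with DES and from 142 to 144 units in controls. All 9 hybridization spike-in probe sets, which read RNAs added in equal amounts to every hybridization, were higher on the DES arrays, by 0.41 to 0.84 on the log2 scale. A scaling that set these spike-ins equal, chosen after seeing the data, moved the median log2 change of all genes to -0.66, against -0.08 in the values as deposited, and left 624 genes higher and 5568 lower. For that reason the counts after spike-in scaling are given beside the gene lists. The shares of all genes, 21.6% higher and 28.0% lower, are the reference for the deposited counts of every list. For counts after spike-in scaling the reference is 624 higher and 5568 lower of the 11751 genes, so falls are common there. A signal under 74.2 units, the lowest 40th percentile among the 7 COP arrays, is called near the floor. In whole glands fewer cells of a type and less RNA per cell cannot be told apart. Among markers of the tissue next to the anterior lobe, Avp, the vasopressin precursor of the neural lobe, was too dim to be tested. Oxt, the oxytocin precursor of the same lobe, had 27.2, 15.7, 41.9 and 16.8 units with DES, against 207, 81.6 and 229.6 in controls, and was called lower (log2 change -2.12 ± 0.50, adjusted p = 0.00153). The part of neighboring tissue in the results was not tested.

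The 3 largest rises in COP pituitary were those of Vip, Klk1b3 and Gal. Here and in the later rankings of rises and falls, only called genes whose DES and control values did not overlap were ranked. Vip, the gene of vasoactive intestinal peptide, a releaser of prolactin, had 11807, 12029, 10562 and 14205 units with DES, against 77.8, 40.3 and 59.9 units in controls. Every DES array lay far above every control array, and the control mean was near the floor (log2 change 7.36 ± 0.25 (SE), adjusted p = 9.67e-16). Gal, which encodes galanin, an estrogen-induced peptide of lactotrophs, had 39696, 43227, 50453 and 48618 units with DES, against 518, 497 and 304 units in controls. The groups were 102-fold apart, and galanin was detected well above the floor in control glands too. Klk1b3, a serine protease of the tissue kallikrein family, had 22702, 24395, 20679.5 and 23198 units with DES and 169, 139 and 101 units in controls. Its log2 change was 7.25 ± 0.19, with no overlap between the groups.

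The sequences around the start sites of Vip and Gal, which rose, and of Lhb and Cartpt, which fell, are printed because these 4 genes code for secreted peptides at both ends of the response. Each run covers 250 bases before to 50 bases after the start of the gene in RefSeq on the GRCr8 build. Capitals mark GGTCA, the half-site of the estrogen response element, read as TGACC where it lies on the other strand, and TGACGTCA, the cyclic AMP response element. Each of the 4 runs holds 1 half-site, and the Cartpt run also holds 1 cyclic AMP response element.
Vip (chr1:44470230-44470529, plus strand): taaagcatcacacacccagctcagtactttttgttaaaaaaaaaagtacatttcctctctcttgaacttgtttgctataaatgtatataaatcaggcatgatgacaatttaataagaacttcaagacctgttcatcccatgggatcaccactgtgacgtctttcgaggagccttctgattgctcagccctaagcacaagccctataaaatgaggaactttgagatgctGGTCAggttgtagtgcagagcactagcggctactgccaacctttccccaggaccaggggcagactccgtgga
Gal (chr1:210084523-210084822, minus strand): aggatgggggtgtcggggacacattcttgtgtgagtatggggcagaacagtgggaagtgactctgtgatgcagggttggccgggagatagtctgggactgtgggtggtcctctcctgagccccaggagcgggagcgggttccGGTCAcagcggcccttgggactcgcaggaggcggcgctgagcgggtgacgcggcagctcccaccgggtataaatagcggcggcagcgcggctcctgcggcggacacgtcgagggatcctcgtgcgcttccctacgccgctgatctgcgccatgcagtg
Lhb (chr1:105037207-105037506, plus strand): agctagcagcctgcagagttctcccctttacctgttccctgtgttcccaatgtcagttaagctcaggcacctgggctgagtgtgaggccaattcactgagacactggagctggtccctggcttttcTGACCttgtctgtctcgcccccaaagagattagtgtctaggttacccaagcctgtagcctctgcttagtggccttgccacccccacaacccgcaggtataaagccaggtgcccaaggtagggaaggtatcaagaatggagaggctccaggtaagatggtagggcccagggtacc
Cartpt (chr2:32991186-32991485, minus strand): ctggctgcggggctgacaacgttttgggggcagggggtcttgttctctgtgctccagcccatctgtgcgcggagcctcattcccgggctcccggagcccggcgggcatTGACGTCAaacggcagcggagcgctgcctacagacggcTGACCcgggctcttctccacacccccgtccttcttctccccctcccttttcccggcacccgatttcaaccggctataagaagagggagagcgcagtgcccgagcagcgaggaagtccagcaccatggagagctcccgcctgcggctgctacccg
The half-site was found in 40.2% of 27457 promoters of the same length on either strand, in 37.1% of 2122 promoters of genes called higher in COP and in 35.7% of 2742 promoters of genes called lower. The share among 4887 promoters of genes not called was 38.4%. The full element, GGTCA and TGACC with any 3 bases between them, which holds a half-site at each end, was found in 7 of all promoters and in 0 of the 9751 promoters of genes tested. Among the 12 largest rises, 10 had a promoter in the table and 4 of these held a half-site (Gal, Guca2b, Pvalb and Vip). Among the 12 largest falls, 10 had a promoter and 7 held one (Agtr1b, Grem1, Lhb, Sec14l3, Sema3e, Serpina3l and Vsnl1). The cyclic AMP response element was found in 1.91% of all promoters and in 3.26% of those of genes tested. Its share was 3.86% for genes called higher, 2.7% for genes called lower and 3.31% for genes not called. These matches describe the letters in one window per gene.

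Further large rises fell on genes of other kinds. Cgref1, which encodes a secreted protein with EF-hand calcium-binding domains, had 11318, 12461, 9886 and 10777 units with DES, against 88.0, 159.9 and 69.6 in controls (95.5-fold). Pvalb, the calcium buffer parvalbumin, had 1547, 1766, 1402 and 1978 units with DES and 10.3, 5.5 and 5.9 in controls. Greb1, an estrogen receptor target whose product acts as a cofactor of the receptor, had 3091, 2641, 2330.2 and 2245 units with DES and 33.8, 52.3 and 36.6 in controls. Control values of Pvalb and Greb1 were near the floor, so that only the DES level is well measured for both. Mzb1, a cofactor of protein folding best known from plasma cells, had 4331, 3635, 2914 and 3218 units with DES and 28.5, 40.4 and 64.1 in controls, a log2 change of 5.90 ± 0.21. Hmcn2, a matrix protein of the hemicentin family, changed by 5.45, Nppc, the precursor of C-type natriuretic peptide, by 5.44, and Guca2b, the precursor of uroguanylin, by 5.23 on the log2 scale. Monoamine receptors were among these genes as well. Drd4, a D2-class dopamine receptor, had 3475, 3429.9, 3757 and 3049 units with DES and 89.1, 73.8 and 54.7 in controls, and Htr5b, a serotonin receptor, changed by 5.32 on the log2 scale.

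**Figure D1:**
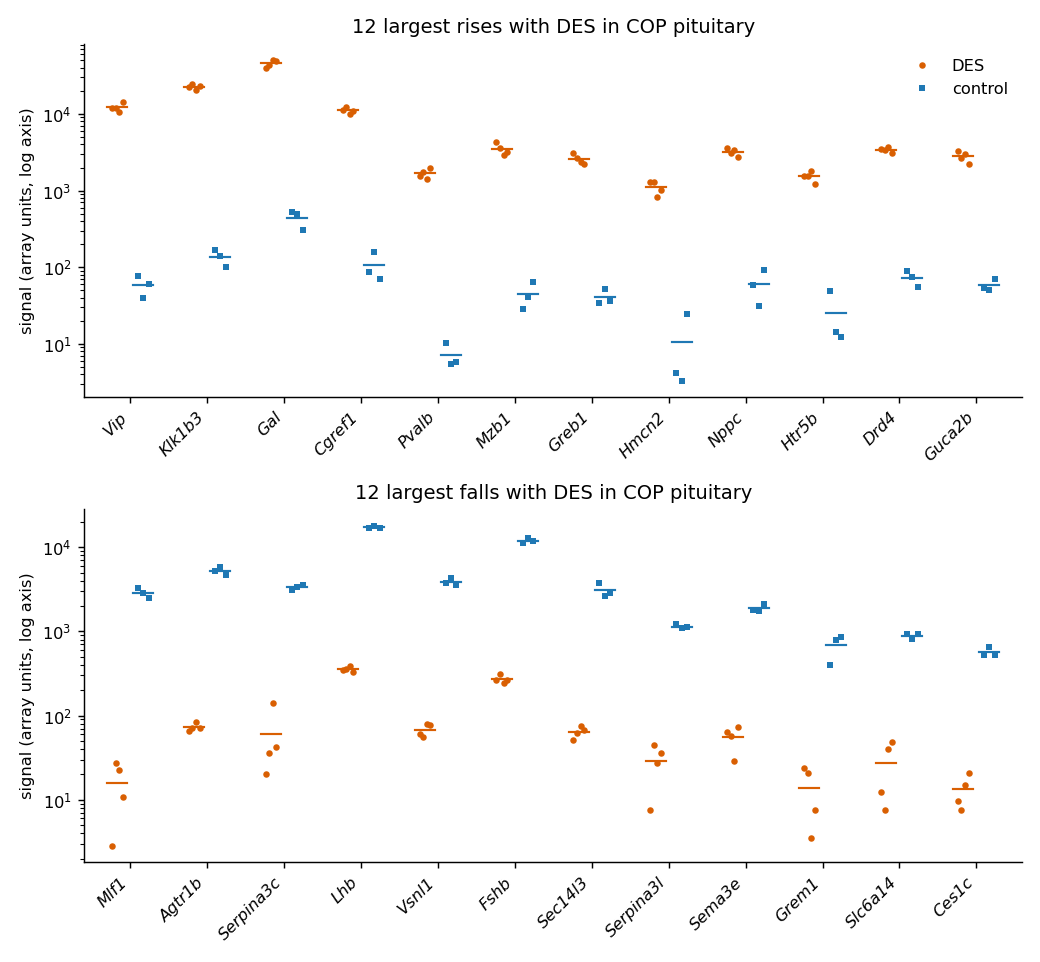
Signal of the 12 largest rises (top) and the 12 largest falls (bottom) in COP pituitary on a log axis in array units, with 1 point per array (4 DES, 3 control) and a line at each group mean. Only genes whose groups did not overlap were ranked, so the DES points lie above the control points for all 12 rises and below them for all 12 falls. The lower group of most genes is near the floor of 74.2 units.

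A second ranking was kept to genes with a mean of at least 100 units in both groups, where both levels are measured above the floor. Fkbp10, a prolyl isomerase that helps to fold collagen in the endoplasmic reticulum, averaged 4862 ± 367 units with DES and 122 ± 30.1 in controls (SD, n = 4 and 3). Serpinf1, which encodes the secreted anti-angiogenic protein PEDF, averaged 5373 ± 656 units with DES and 143 ± 14.0 in controls. S100g, or calbindin-D9k, which estrogen induces in rat uterus, had 10388, 13909, 14155 and 23629.8 units with DES, against 153, 518 and 1251 in controls. The 4 DES arrays of S100g differed among themselves by more than those of Gal or Cgref1 and still lay above every control array. Gap43, a protein of neuronal growth cones, changed by 4.49 ± 0.19, and Ecel1, an endopeptidase related to endothelin-converting enzyme, by 4.48 ± 0.23 on the log2 scale. Creb3l1, an endoplasmic reticulum-bound transcription factor activated by cleavage, had 9755, 9178, 7895 and 6892 units with DES and 528, 434 and 334 in controls, a 19.0-fold difference. The remaining genes of this ranking were Spetex2l2 (4.30), the acid-sensing ion channel Asic2 (4.12) and the receptor chaperone Tmem35a (3.98).

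Among the largest falls were an angiotensin receptor, serine protease inhibitors and the beta subunits of both gonadotropins. Mlf1, myeloid leukemia factor, had 2.8, 27.5, 22.6 and 10.8 units with DES, against 3268, 2849 and 2459.9 in controls, the largest fall among all genes tested (log2 change -6.56 ± 0.40, adjusted p = 1.93e-11). Agtr1b, the angiotensin II receptor subtype through which angiotensin releases prolactin in the rat, had 65.7, 70.8, 84.3 and 71.1 units with DES and 5274, 5865 and 4613 in controls. Vsnl1, a neuronal calcium sensor of the visinin family, had a mean of 68.3 ± 11.8 units with DES and 3875 ± 384 in controls (SD, n = 4 and 3). In each of these 3 genes the DES mean was near the floor, while no control value was. Serpina3c and Serpina3l, serpins of a family that inhibits chymotrypsin-like proteases, changed by -5.70 and -4.77, and the lipid-binding protein gene Sec14l3 by -5.28 on the log2 scale. Grem1, an extracellular antagonist of bone morphogenetic proteins, had 23.8, 20.6, 3.5 and 7.6 units with DES and 394, 799 and 865 in controls, and Sema3e, a guidance molecule for axons and vessels, 64.3, 56.8, 29.2 and 73.8 and 1808, 1764 and 2105. Slc6a14, an amino acid transporter, changed by -4.51 and Ces1c, a carboxylesterase, by -4.32.

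Falls were also ranked among genes with both means at 100 units or more. Dcn, which encodes the collagen-binding proteoglycan decorin, had 348, 286, 281 and 719 units with DES, against 6400.1, 7509.5 and 8212 in controls, and Lum, the related lumican, had 93.8, 82.8, 81.8 and 165 with DES and 1828, 1536 and 1445 in controls. Both proteoglycans were lower on every DES array, by 18.7-fold and 13.7-fold. Aldh1a1, an enzyme that makes retinoic acid from retinaldehyde, averaged 289.8 ± 24.5 units with DES and 5569 ± 779.6 in controls. Rab3b, a small GTPase of secretory vesicles, averaged 242 ± 47.4 units with DES and 2947 ± 156 in controls. Cartpt, the precursor of CART peptide, had 265, 366, 301 and 502 units with DES and 6965, 3153 and 4543 in controls, which did not overlap (log2 change -3.68 ± 0.40). The remaining falls of this ranking were Bmerb1 (-3.91), the neuronal membrane glycoprotein Gpm6a (-3.89), the receptor phosphatase Ptprr (-3.85), the engulfment adaptor Gulp1 (-3.84) and C7h12orf75 (-3.40).

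Among the 7 hormone subunit genes, Lhb, the beta subunit of luteinizing hormone, had 352, 355, 388 and 331 units with DES, against 16732, 18077 and 17099.7 in controls. Fshb, the beta subunit of follicle-stimulating hormone, had 267, 315, 245 and 263 units with DES and 11097, 12977 and 11877 in controls. Both gonadotropin beta subunits were lower on every DES array, by 46.6-fold and 41.7-fold. Tshb, the thyrotropin beta subunit, had 6758, 9738, 9634 and 10963 units with DES and 28874, 29475 and 27792 in controls, and was lower on each DES array (3.14-fold). Pomc had 111, 8.5, 13.3 and 89.0 units with DES and 170.5, 265 and 209.5 in controls, and was lower on each DES array (4.09-fold). Its DES mean was near the floor, and its control signal was far below that of the other hormone genes. Prl had 40160.0, 46249.9, 51777 and 52575 units with DES and 29653, 31742 and 31354 in controls, and Gh1 34658, 35689.5, 38579.6 and 42044 and 26104, 25647 and 27685. The rises were 1.53-fold for Prl (adjusted p = 0.00924) and 1.42-fold for Gh1 (adjusted p = 0.0325). Prl was the brightest probe set on DES arrays 1, 2 and 3, and its log2 change was 0.035 under quantile normalization and 0.0064 after spike-in scaling, where it was not called. Gh1 lost its call in 5 of the 7 fits that left out 1 COP array, and its change was below 0 under quantile normalization and after spike-in scaling. Cga, the alpha subunit shared by 3 of these hormones, had 31863, 34732, 38834 and 41218 units with DES and 26804, 28011 and 27231 in controls. It did not pass the test (adjusted p = 0.0682), but its call depended on the processing. Quantile normalization called Cga lower (log2 change -0.27, adjusted p = 5.72e-05), and equal array medians called it higher (0.52, adjusted p = 0.0309). Both block fits and the fit of the 7 COP arrays alone also called it higher. The 7 genes had 2 members higher and 4 lower as deposited, 0 and 5 under quantile normalization and 0 and 4 after spike-in scaling. Of 13 lactotroph markers tested, 2 rose (Prl and Oxtr) and 5 fell, with a median log2 change of -0.71 (1 and 7 after spike-in scaling). Of 8 somatotroph markers, 2 rose (Gh1 and Sstr2) and 4 fell, with a median of -0.66 (0 and 5 after spike-in scaling).

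**Figure D2:**
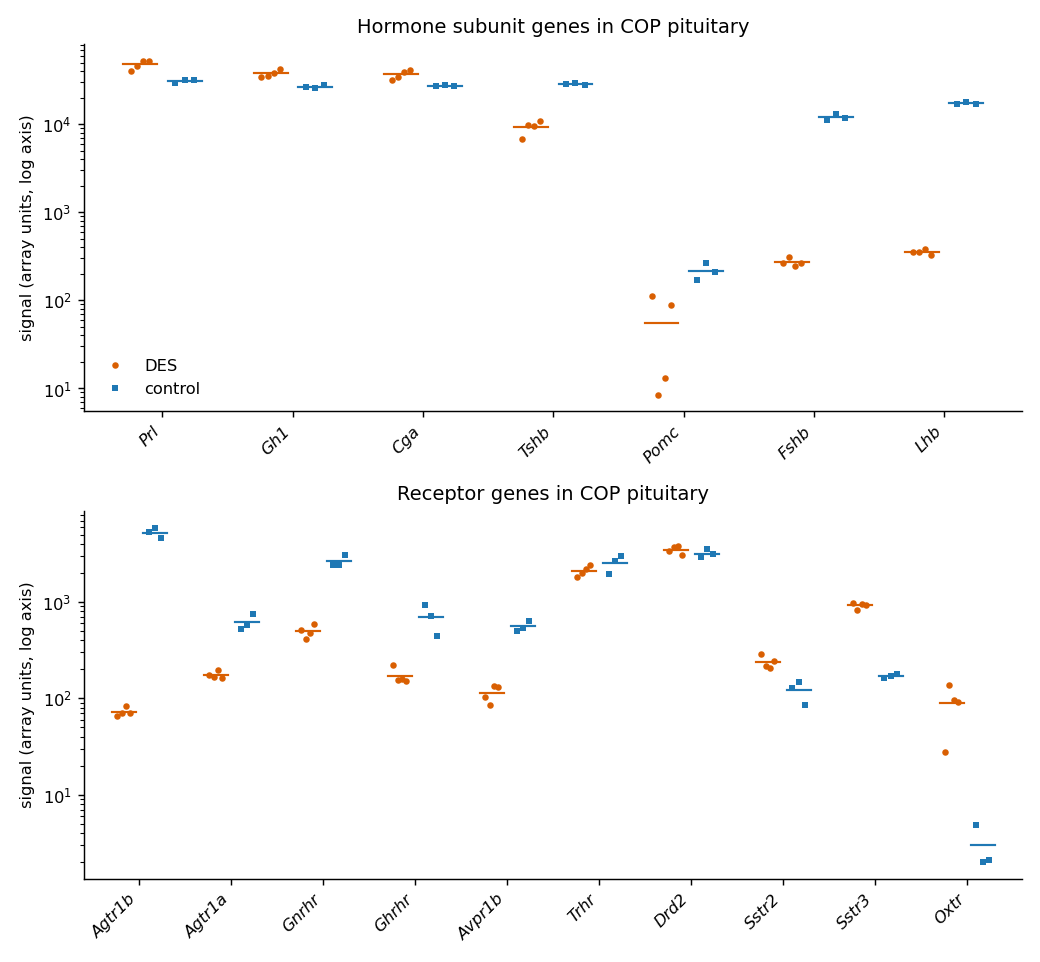
Signal of the 7 hormone subunit genes (top) and of 10 receptor genes (bottom) in COP pituitary on a log axis in array units, with 1 point per array (4 DES, 3 control) and a line at each group mean. Lhb, Fshb and Agtr1b show the widest gaps, with all DES points below the control points, while the means of Prl, Gh1 and Cga differ little on this scale (Gh1 and Cga are lower with DES under quantile normalization).

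Genes that mark gonadotrophs fell beyond the hormone subunits. Of 16 tested markers, 11 fell and 3 rose, against 28.0% and 21.6% of all genes, with a median log2 change of -0.87 against -0.08 over all genes, and after spike-in scaling 11 fell and 0 rose. These counts include the subunit genes Lhb and Fshb, both among those that fell, and Cga, which was not called. Gnrhr, the receptor for gonadotropin-releasing hormone, had 517, 414, 476 and 592 units with DES and 2424, 2414 and 3076 in controls. Gata2, a transcription factor of gonadotrophs and thyrotrophs, had 155, 149, 121 and 118 units with DES, against 922, 1275 and 1188 in controls, a 7.51-fold fall. Spp1, which encodes osteopontin, changed by -4.04, and Chga, which encodes chromogranin A, by -1.63 on the log2 scale. Inha, Inhba and Scg2 went against the rest of the list, with log2 changes of 0.52, 0.90 and 0.41. Scg2 was lower with DES under quantile normalization, Inha and Scg2 after spike-in scaling, and a second probe set of Inhba fell. Leaving out 1 COP array ended the call of Inha in 4 of the 7 fits and those of Inhba and Scg2 in 3 each.

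The 16 transcription factors that specify pituitary lineages had 0 members higher and 12 lower, with a median of -0.88, and 0 and 14 after spike-in scaling. Tbx19, which drives Pomc expression in corticotrophs, had 162, 92.6, 187 and 86.1 units with DES and 730.0, 558 and 614 in controls. Pou1f1, needed for lactotrophs, somatotrophs and thyrotrophs, had 4557, 4502, 4306 and 4838 units with DES, against 7265, 7955 and 7090.2 in controls. Neither set overlapped, and the fall of Pou1f1 was 1.63-fold. Eya1, a coactivator of homeobox factors, changed by -1.58, Zbtb20, a factor of lactotroph and somatotroph maturation in the mouse, by -1.09, and Six6 by -0.83. Of 6 corticotroph and melanotroph markers tested, 1 rose and 3 fell (0 and 4 after spike-in scaling). Pcsk2, the prohormone convertase, was the one that rose, with 1529.7, 1489, 1474 and 908 units with DES and 919, 864 and 817 in controls, values that overlapped, and its log2 change was below 0 after spike-in scaling. Avpr1b, the receptor through which vasopressin releases corticotropin, had 104, 85.8, 134 and 130.3 units with DES and 502, 538 and 632 in controls. Among the 9 thyrotroph markers 1 rose and 6 fell (0 and 7 after spike-in scaling). Thrb, a receptor for thyroid hormone that represses Tshb, was the one that rose (log2 change 0.91 ± 0.13), while Rxrg, its retinoid receptor partner, changed by -1.37 and Isl1, a thyrotroph and gonadotroph factor, by -1.76.

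Markers of folliculostellate and stem cells were lower with DES. Of 14 tested, 10 fell and 0 rose, with a median of -0.79 (14 and 0 after spike-in scaling), and their summed signal ran from 7671 to 9025 units with DES and from 15289 to 15834 units in controls. Cdh1, the epithelial adhesion protein E-cadherin, had 254, 218, 246 and 231 units with DES, against 976, 1068 and 1089 in controls. Sox2, a factor of pituitary progenitors, had 479.5, 493, 452 and 393 units with DES and 1063, 1294 and 1350.2 in controls. Anxa1, a mediator of glucocorticoid feedback in folliculostellate cells, changed by -1.58, the RNA-binding protein gene Rbpms by -1.36 and the water channel Aqp4 by -1.33. In each of the named markers every DES value lay below every control value. Neural lobe and nerve markers had 5 of 7 lower and 0 higher (7 and 0 after spike-in scaling), among them the sodium channel gene Scn7a (-3.24), Oxt (-2.12) and Nefl, a neurofilament subunit (-1.36). Their summed signal ran from 9609.5 to 11896 units with DES and from 14731 to 18403 units in controls.

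Receptors for hypothalamic and other peptide signals had 8 of 20 members lower and 5 higher (11 and 2 after spike-in scaling). The deposited shares were 40% and 25%, against 28.0% and 21.6% of all genes. Ghrhr, the growth hormone-releasing hormone receptor of somatotrophs, had 219.6, 154, 159.8 and 152 units with DES and 935, 720.5 and 447 in controls (3.7-fold lower). Prlr, the prolactin receptor, changed by -1.55 and Adcyap1r1, a receptor for PACAP, by -1.69. A second probe set of Adcyap1r1 was not called (log2 change -0.45, adjusted p = 0.529). Sstr3, a somatostatin receptor, had 973, 831, 947 and 939 units with DES, against 162, 172 and 178 in controls. The related receptors, Sstr2 and Sstr1, changed by 0.91 and 0.75 as deposited, but neither was called after spike-in scaling or on its second probe set (adjusted p = 0.0769 and 0.512), nor was Sstr2 without DES 1 or control 3. Oxtr, the oxytocin receptor, rose by 2.33 above a control level near the floor, and Npr2, the receptor of C-type natriuretic peptide, had a log2 change of 0.59 that was below 0 after spike-in scaling. Drd2, the dopamine receptor that inhibits lactotrophs, had 3366, 3690.2, 3843 and 3081 units with DES and 2919.9, 3515 and 3135 in controls, values that overlapped and did not pass the test (adjusted p = 0.552), and Trhr, the thyrotropin-releasing hormone receptor, did not pass it either (log2 change -0.25, adjusted p = 0.286). Drd2, Trhr and Adcyap1r1 were named after their values were seen.

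All 5 tested genes of the renin-angiotensin system fell, as deposited and after spike-in scaling, with a median of -2.08. Beside Agtr1b, the second receptor gene Agtr1a had 176, 168, 196 and 163 units with DES and 522, 574 and 746 in controls. Ace, the converting enzyme that makes angiotensin II, had 113, 83.9, 150.4 and 85.5 units with DES, against 534, 485 and 478 in controls. Enpep, an aminopeptidase that shortens angiotensin II, had 422, 413, 231 and 271 units with DES and 1999, 1498 and 1198 in controls. The falls of Ace and Enpep were 4.23-fold and 4.56-fold, with no overlap, and Atp6ap2, the prorenin receptor, changed by -0.43. Renin itself was not on the array, and angiotensinogen was too dim to be tested.

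Neuropeptide genes changed in both directions, with 6 of 18 tested higher and 6 lower (5 and 7 after spike-in scaling). The deposited share was 33.3% in each direction, against 21.6% and 28.0% of all genes. Besides Vip, Gal, Nppc and Guca2b, Nmb, the precursor of neuromedin B, rose by 1.71 and Calcb, a calcitonin gene-related peptide, by 1.22 on the log2 scale. Nmu, the precursor of neuromedin U, had 195, 259.9, 226 and 373 units with DES, against 1597, 1195 and 1606 in controls, and Penk, proenkephalin, changed by -1.26. Nmb, Calcb and Penk were chosen after their values were seen.

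**Figure D3:**
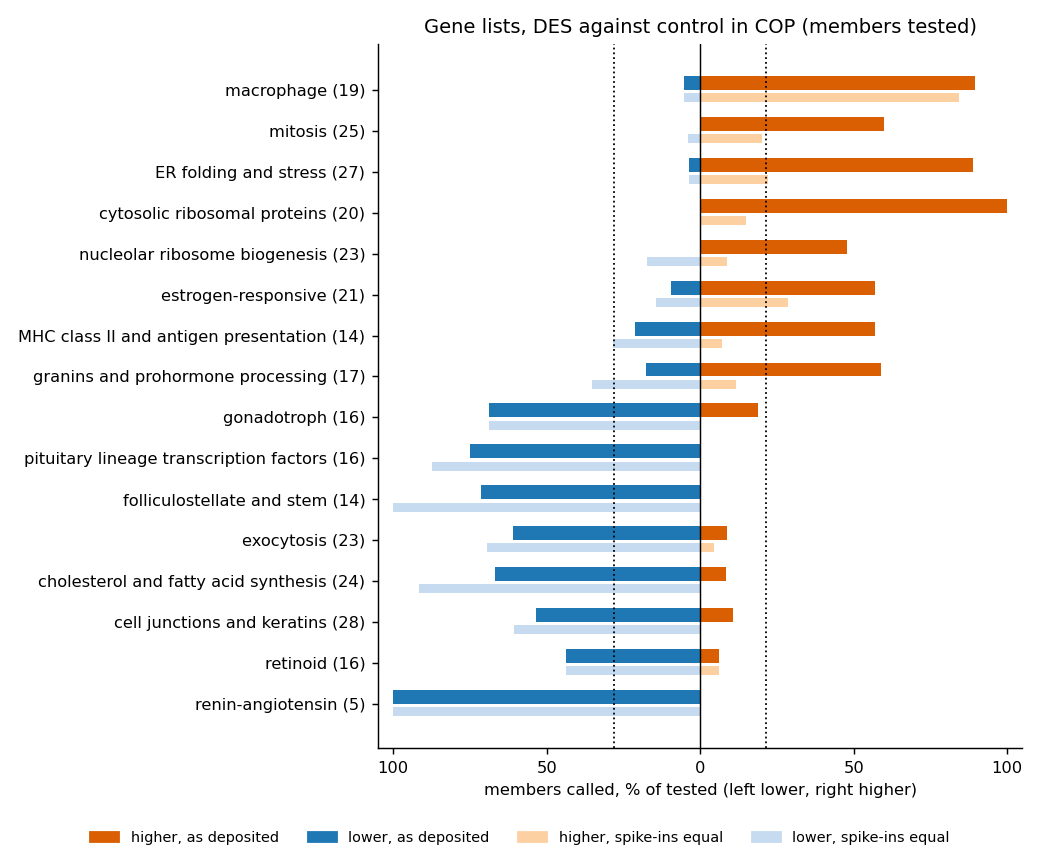
Share of tested members called higher (right) and lower (left) with DES in COP for 16 gene lists, in percent of the members tested, whose number stands in brackets. Dark bars show the values as deposited and pale bars the values after spike-in scaling. Dotted lines mark the shares among all genes as deposited (21.6% higher, 28.0% lower) and are no reference for the pale bars. After spike-in scaling 624 of all 11751 genes were higher and 5568 lower. The macrophage list keeps most of its rises in both, while the antigen presentation, granin and nucleolar lists have more members lower than higher after spike-in scaling (granins also under quantile normalization).

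Some lists had no member called in one direction with limma. At an unadjusted p under 0.05, members in that direction numbered 1 for mitosis (lower), 1 for nucleolar ribosome assembly (lower), 0 for ribosomal proteins (lower), 0 for lineage transcription factors (higher), 0 for folliculostellate and stem cells (higher) and 0 for neural lobe and nerve (higher).

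Most macrophage genes were higher with DES. Of 19 tested, 17 rose and 1 fell, with a median log2 change of 1.78, and 16 and 1 did so after spike-in scaling. Their summed signal ran from 24189 to 32736 units with DES and from 9339 to 11179.5 units in controls. Gpnmb, a glycoprotein of lysosome-rich macrophages, had 1700.5, 1711, 1468 and 1759 units with DES, against 111, 80.0 and 103 in controls. Cd68, a lysosomal macrophage marker, had 414, 455, 344 and 470.1 units with DES and 103, 108 and 90.9 in controls. Laptm5, a lysosomal protein of blood cells, had 858, 707, 715 and 1351 units with DES and 145, 111 and 109.9 in controls. No DES value of these 3 genes reached down to a control value, and Gpnmb differed 14.8-fold. Aif1, Tyrobp and Csf1r, the receptor for the growth factor of macrophages, changed by 1.80, 2.11 and 1.39, and were chosen after their values were seen. Lyz2, lysozyme, went the other way, with 1917, 1797, 1978 and 2565 units with DES and 4729, 4976 and 4055 in controls. Cd163, a scavenger receptor of resident macrophages, also chosen after its values were seen, had 31.9, 12.6, 10.7 and 39.1 units with DES and 4.8, 6.4 and 30.3 in controls and did not pass the test (adjusted p = 0.502).

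**Figure D4:**
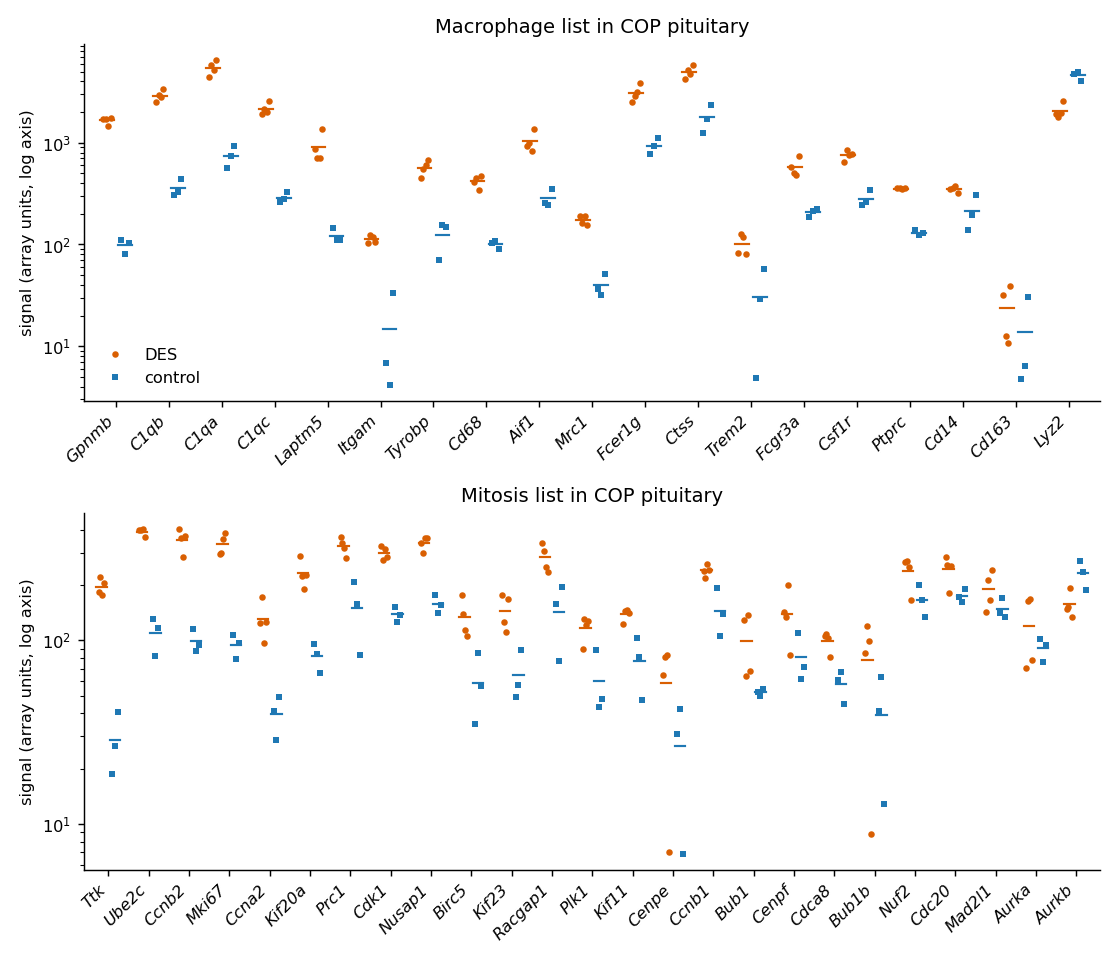
Signal of the 19 macrophage genes (top) and the 25 mitosis genes (bottom) that were tested, on a log axis in array units, with 1 point per COP array (4 DES, 3 control) and a line at each group mean. DES points lie above control points for most macrophage genes (16 higher and 1 lower after spike-in scaling), while the gaps of the mitosis genes are narrower (15 higher and 0 lower as deposited, 5 and 1 after spike-in scaling).

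Complement genes had 7 of 13 members higher and 2 lower (6 and 2 after spike-in scaling). The C1q chains C1qa, C1qb and C1qc, which macrophages make and which also stand in the macrophage list, changed by 2.86, 2.96 and 2.84. C3, the central component of the cascade, had 1289, 1939, 1773 and 2276 units with DES and 217, 330.1 and 384 in controls. Cd55, an inhibitor of complement on cell surfaces, had 459.9, 480.0, 454 and 304 units with DES, against 70.6, 22.9 and 37.7 near the floor in controls. C1r, the protease partner of C1q, changed by -1.03 and Cd59b, another inhibitor, by -0.64. The rise of the summed macrophage signal stood beside these changes, and its part in them was not tested.

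Genes of antigen presentation, a list of MHC class II genes and genes of the class I pathway, had 8 of 14 members higher and 3 lower as deposited, and 1 and 4 after spike-in scaling. RT1-DMa, which loads peptides onto class II molecules, had 373, 362, 409.5 and 491 units with DES and 177, 172 and 129 in controls, and RT1-Ba, a class II chain, 839, 773, 472 and 1229 and 455, 318 and 264. Both were higher on every DES array, but a second RT1-Ba probe set was not called (log2 change 0.69, adjusted p = 0.267). RT1-Ba also lost its call after spike-in scaling (adjusted p = 0.125). The 3 that fell belong to the class I pathway. Tapbp and B2m of the same pathway were called higher as deposited (0.66 and 0.64), B2m on 1 of its 2 probe sets. Psmb9, an immunoproteasome subunit, had 384, 404, 527 and 529.7 units with DES, against 1995, 2182 and 2285 in controls, and the peptide transporter subunit Tap2 and the immunoproteasome subunit Psmb8 changed by -1.02 and -0.56, where Tap2 lost its call in 4 of the 7 fits that left out 1 COP array. Interferon-induced genes were mixed, with 7 of 15 higher and 5 lower (3 and 5 after spike-in scaling). Cxcl10, a chemokine, changed by 1.82, Mx1, an antiviral GTPase, by 1.73 and Usp18, a negative regulator of interferon signaling, by 1.19, whereas Irf1, an interferon-responsive transcription factor, changed by -1.59 and Stat2 by -0.90.

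Among genes of mitosis 15 of 25 rose and 0 fell as deposited, with a median log2 change of 0.85, whereas 5 rose and 1 fell after spike-in scaling. Mki67, the marker of cycling cells, had 297, 298, 359 and 382 units with DES and 107, 79.2 and 97.1 in controls. Ccnb2, a mitotic cyclin, had 403, 361, 283 and 371 units with DES, against 116, 87.5 and 93.9 in controls. Ube2c, which conjugates ubiquitin to mitotic cyclins, had 401, 398, 403 and 364 units with DES and 130.3, 82.1 and 118 in controls. The groups of these 3 genes did not overlap and lay 3.17-fold, 3.21-fold and 3.28-fold apart. Ttk, the spindle checkpoint kinase, Kif20a, a mitotic kinesin, and Cdk1 changed by 2.27, 1.34 and 1.03. Genes of DNA replication had 5 of 19 higher and 2 lower as deposited and 1 and 6 after spike-in scaling. The deposited shares were 26.3% and 10.5%, against 21.6% and 28.0% of all genes. Top2a, the topoisomerase of dividing cells, had 298, 324, 256 and 312 units with DES and 149.5, 109 and 89.5 in controls, while the helicase subunit Mcm2 (-0.38) and the primase subunit Prim1 (-0.52) went the other way. Genes of G1 cyclins and entry had 2 of 14 higher and 1 lower (1 and 4 after spike-in scaling), shares of 14.3% and 7.14% that were below those of all genes. Ccnd3 rose by 1.48 and Ccnd1 fell (-0.56), a call lost without control 2. Only 1 of the 3 Ccnd1 probe sets was called. Inhibitors of cyclin-dependent kinases and tumor suppressors had 6 of 14 higher and 3 lower as deposited, but 0 and 5 after spike-in scaling. Cdkn1a, or p21, had 445, 354, 396 and 522 units with DES, against 188, 124 and 195 in controls, and lost its call after spike-in scaling (adjusted p = 0.0586), while Gadd45a and Cdkn1c changed by -1.19 and -0.75.

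Myc, a growth-promoting transcription factor in the Ept7 interval, a rat locus linked to estrogen-induced pituitary growth, had 885, 654, 629.7 and 618 units with DES and 153, 135 and 71.0 in controls. Its neighbor Pvt1, a non-coding RNA gene, had 254, 249.7, 206 and 328 units with DES, against 58.2, 152 and 84.6 in controls. Neither pair of groups overlapped, and the log2 changes were 2.43 ± 0.25 and 1.33 ± 0.26. A1bg, also in the interval, had 2.2, 20.9, 13.2 and 4 units with DES and 6.2, 40.1 and 9.3 in controls and did not pass the test (adjusted p = 0.67).

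Known estrogen targets had 12 of 21 members higher and 2 lower (6 and 3 after spike-in scaling). Pgr, the progesterone receptor, had 779, 844, 791 and 832 units with DES, against 148, 112 and 197 in controls. Stc2, stanniocalcin 2, had 340.1, 269, 287 and 196 units with DES and 27.7, 4.9 and 11.4 in controls. Both were higher on each DES array, by 5.02-fold and 9.72-fold. Igfbp4, which binds insulin-like growth factors, changed by 1.51, whereas Cish, an inhibitor of cytokine signaling, changed by -1.23. A second probe set of Cish was not called (log2 change -0.45, adjusted p = 0.374). Esr1, which encodes estrogen receptor alpha, had 73.3, 68.5, 22.5 and 37.4 units with DES and 136, 98.1 and 53.3 in controls, had a DES mean near the floor and did not pass the test (adjusted p = 0.322). In the list of steroid and nuclear receptors, which also holds Pgr, 8 of 20 fell, 3 rose and 9 were not called (9 lower and 2 higher after spike-in scaling). Nr3c2, the mineralocorticoid receptor, had 170.5, 266, 246 and 221 units with DES and 1586, 1140.2 and 1542 in controls, and Nr3c1, the glucocorticoid receptor, had 723, 756, 634 and 804 with DES and 1914, 1896 and 1834 in controls. Falls of these 2 steroid receptors were 5.96-fold and 2.56-fold. Esrrg, an orphan receptor, changed by -1.29, and Nr4a2, another orphan receptor, by 2.08 in the other direction.

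Genes of protein synthesis and folding were mostly higher with DES as deposited. All 20 cytosolic ribosomal protein genes tested were called higher as deposited, with a median of 0.86, but 3 were after spike-in scaling and 11 under quantile normalization. Rplp0 averaged 31509 ± 2596 units with DES and 13355 ± 1262 in controls, and Rpl14 averaged 23571 ± 1774 with DES and 12083 ± 1299.5 in controls. Rpl14 lost its call after spike-in scaling (adjusted p = 0.132), and its second probe set was not called (adjusted p = 0.642). Of 27 genes for folding and stress in the endoplasmic reticulum 24 rose and 1 fell, with a median of 0.76, against 6 and 1 after spike-in scaling. Dnajc3, a cochaperone of the lumen, had 9571, 9207, 11836 and 11069 units with DES, against 2696, 2934 and 2927 in controls. Sec61a1, the core of the translocation channel, had 5267, 5408, 6617 and 6356 units with DES and 2072, 2051 and 2155 in controls. Manf, a secreted folding factor, had 13554, 14819, 16049.7 and 14517 units with DES and 5825, 6316 and 6143 in controls. Every DES array lay above every control array in these 3 genes. Ddit3, or CHOP, the death-associated factor of endoplasmic reticulum stress, was the one that fell (-0.57). Of 23 genes for ribosome assembly in the nucleolus 11 rose and 0 fell as deposited, and 2 rose and 4 fell after spike-in scaling. Nop56, a subunit of the box C/D particles that methylate ribosomal RNA, had 8696, 8619.6, 9026 and 8329.8 units with DES and 2097, 2136 and 2099.6 in controls, a 4.08-fold rise.

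Granins and prohormone-processing enzymes had 10 of 17 higher and 3 lower as deposited, but 4 and 7 under quantile normalization and 2 and 6 after spike-in scaling. Vgf, a granin-like protein, had 3332, 3442, 2563 and 2778 units with DES and 913, 779 and 899 in controls, and Pcsk6, a proprotein convertase, 10989.5, 10896, 10104 and 9709 and 3301, 3064 and 2946. Chga had 3601, 3189.7, 2770.2 and 3121 units with DES, against 9969.6, 9947 and 9568 in controls, and Pcsk1n, an inhibitor of prohormone convertase, had 3356, 3688, 2868 and 2337 with DES and 12482, 14106 and 11310.0 in controls. Vgf and Pcsk6 were higher and Chga and Pcsk1n lower on every DES array. Exocytosis genes were mostly lower, 14 of 23 against 2 higher (16 and 1 after spike-in scaling). Besides Rab3b, Cadps, which primes dense-core vesicles, had 1050.1, 1070.3, 1107 and 962 units with DES and 3294, 3288 and 3618 in controls, and Sytl4, or granuphilin, a Rab effector on granules, had 210.2, 339, 216 and 246 with DES and 2769, 1967 and 1283 in controls. Rab3d, a Rab of large granules, had 5422, 5748, 5486 and 5286 units with DES, against 1500.3, 1655 and 1289 in controls and was one of the 2 that rose, with the calcium sensor Syt4 (0.78).

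Cholesterol and fatty acid synthesis was lower through most of the pathway. Of 24 genes tested 16 fell and 2 rose, with a median of -0.82, and 22 fell and 0 rose after spike-in scaling. Sqle, which makes the first oxygenated sterol intermediate, had 324, 261, 319.5 and 392 units with DES and 1440.2, 1214 and 1388 in controls. Fdft1, which makes squalene, had 327, 313, 275 and 345 units with DES, against 1478, 1083 and 1153 in controls. Idi1, which isomerizes isopentenyl diphosphate, had 238, 229, 357 and 506 units with DES and 1402, 1941 and 1839 in controls. These 3 genes were lower on each DES array, by 4.04-fold, 3.77-fold and 5.21-fold. Fads1, a fatty acid desaturase, changed by -1.57, Msmo1, a sterol oxidase, by -1.28 and Acaca, which makes malonyl-CoA, by -1.17. A second probe set of Acaca was not called (log2 change -0.35, adjusted p = 0.54). Acly and Sc5d had log2 changes of 0.36 and 0.40 and were below 0 after spike-in scaling. Genes of retinoid metabolism had 7 of 16 lower and 1 higher, also after spike-in scaling, and the one that rose was Cyp26a1, which degrades retinoic acid (2.13), while the receptor Rarb changed by -1.29. Glutathione and detoxification genes had 6 of 26 higher and 11 lower (2 and 15 after spike-in scaling). Gsta4, a glutathione transferase, had 1553, 1529.6, 1611 and 1944 units with DES and 4682, 5222 and 6260.4 in controls, whereas Prdx4, a peroxidase of the endoplasmic reticulum, had 15852, 17746, 17490.1 and 20296 with DES and 6323, 7779.6 and 5504 in controls.

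Potassium channels had 4 of 20 higher and 9 lower (1 and 14 after spike-in scaling). Kcnk1, a leak channel, had 2076, 1921, 1764 and 1782 units with DES, against 246, 214 and 250.3 in controls, and Kcnk2, a mechanosensitive leak channel, had 468, 381, 376 and 299.9 with DES and 1985, 1801 and 1449.7 in controls. The large-conductance calcium-activated channel Kcnma1 changed by 1.06 and its subunit Kcnmb4 by -3.10, toward the floor. Calcium and sodium channels had 6 of 22 higher and 5 lower as deposited (4 and 7 after spike-in scaling), shares of 27.3% and 22.7% that are near the 21.6% and 28.0% of all genes. Cacna1g, a T-type calcium channel, had 1067, 939, 863 and 749 units with DES and 3.4, 41.6 and 13.7 in controls, and Scn9a, a sodium channel, 112, 91.4, 43.5 and 96.4 and 849.9, 846 and 726. Of the EF-hand calcium-binding proteins 6 of 20 rose and 6 fell, also after spike-in scaling, with Ncald (1.95) and Hpca (2.22) higher and S100a1 (-1.60) lower besides Pvalb, S100g and Vsnl1.

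Cell junction and keratin genes had 15 of 28 members lower and 3 higher (17 and 0 after spike-in scaling). Cdh11, a mesenchymal cadherin, had 561, 428, 501 and 428 units with DES and 2392, 1885 and 1798 in controls. Cldn11, a tight junction protein, had 211, 84.1, 92.9 and 155 units with DES, against 968, 763 and 1233 in controls. Krt8, an epithelial keratin, had 4799, 4623, 5239.6 and 5337 units with DES and 2085, 2395 and 2658 in controls. Groups did not overlap in any of the 3, and Krt8 and the claudin Cldn3 (1.16) were among the members that rose. Fibroblast and matrix genes had 9 of 20 lower and 4 higher (11 and 2 after spike-in scaling), and their summed signal ran from 8639.6 to 9993 units with DES and from 19768 to 20964 units in controls. Loxl1, which crosslinks elastin, had 520.0, 436, 561 and 743 units with DES and 2246, 2203 and 2286 in controls, whereas Sparc, a collagen-binding matrix protein, had 1999, 2038, 2653 and 2896 with DES and 715, 757 and 956 in controls, and the collagen chain gene Col6a3 changed by 1.80. A second probe set of Col6a3 was not called (log2 change 0.40, adjusted p = 0.467).

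Signaling ligands and antagonists included large single changes without a common direction. Wnt4 had 1771, 1958, 2213 and 2047 units with DES, against 166, 118 and 197 in controls, and Wnt10a changed by 2.79, while Axin2, a target and inhibitor of Wnt signaling, changed by -1.04. In the Wnt and Notch list 4 of 24 rose and 6 fell (3 and 11 after spike-in scaling), shares of 16.7% and 25.0% that were not above those of all genes. Growth factor ligands and receptors had 9 of 22 higher and 6 lower as deposited, and 4 and 8 after spike-in scaling. Bdnf, a neurotrophin, had 1732, 1374, 1876 and 2053 units with DES and 362, 232 and 348 in controls, and Egfr, the epidermal growth factor receptor, had 951, 714, 962 and 676 with DES and 194, 164 and 287 in controls. Igfbp2, another binding protein of insulin-like growth factors, had 317, 370.0, 315 and 366 units with DES, against 1583, 1184 and 1398 in controls. Bdnf and Egfr were higher and Igfbp2 lower on every DES array. Bambi, a decoy receptor for transforming growth factor beta, changed by -2.20, and Chrd, which encodes the bone morphogenetic protein antagonist chordin, by 2.75.

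The response of COP was called different from that of the related ACI strain in few genes. Genes without a call were not shown to respond alike. The difference in response, the log2 change in COP minus that in ACI, was called for 76 genes, 0.647% of those tested, of which 52 (0.443%) were higher in COP and 24 (0.204%) lower. Counted over probe sets there were 78 higher and 37 lower, but 39 and 56 once array medians were made equal and 4 and 7 after spike-in scaling, and the 115 in all were 50 without COP control 2 and 51 without COP control 1. Vip had the largest positive difference, with a log2 change of 7.36 in COP and 4.35 in ACI (3.01, 95% interval 2.28 to 3.75, adjusted p = 0.000175). C3 had a log2 change of 2.50 in COP and -0.03 in ACI (difference 2.52, adjusted p = 0.00688), and the matrix proteoglycan gene Vcan one of 0.43 in COP and -1.66 in ACI (difference 2.09). Of the 16 single-gene differences from ACI named in this paragraph, 9 lost their call after spike-in scaling, C3 among them (adjusted p = 0.0952). Further positive differences were those of Crocc, a ciliary rootlet protein (2.68), Vgll2, a transcriptional cofactor (2.49), the carboxylesterase gene Ces1d (2.23), Defb24, a defensin (2.01), and 6330403K07Rikl (2.39). Leaving out any 1 of the 7 COP arrays ended the call of Crocc, leaving out 1 of 5 ended that of Vcan or Vgll2, and control 3 for Defb24 and control 1 for 6330403K07Rikl did the same. On the negative side, Slc40a1, the iron exporter ferroportin, had a log2 change of -1.04 in COP and 1.60 in ACI (difference -2.64, adjusted p = 4.66e-06). Hmox1, which degrades heme, had 0.64 in COP and 2.88 in ACI on the same scale (difference -2.24), and Agtr1b had -5.88 in COP and -3.35 in ACI (difference -2.53). The mitotic spindle gene Fam83d, the phosphatase gene Cdkn3, the chemokine gene Ccl6, the globin gene Hba-a3 and the glutamate receptor gene Grik1 had differences of -2.16, -1.87, -2.11, -1.87 and -1.87. Among these 5 the call was lost in 6 of the 7 fits without 1 COP array for Ccl6, in 3 for Grik1, in 2 for Hba-a3 and in 1 for Fam83d. For the mitosis list the median change was 0.85 in COP and 1.62 in ACI, and 2 of its 25 members had a called difference, against 0.647% of all genes. At an unadjusted p under 0.05 with limma, 14 of these 25 genes differed from ACI. Crocc, Vcan, Vgll2, Fam83d and Grik1 were near the floor in at least 1 COP group, and the COP groups of Crocc, Vcan, Fam83d, Ccl6 and Hba-a3 overlapped.

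The comparison with BN used the same COP arrays. More genes separated COP from BN, 816 or 6.94% of those tested, of which 472 (4.02%) had the higher response in COP and 344 (2.93%) the lower. Over probe sets the split was 612 higher and 530 lower, against 93 and 45 after spike-in scaling, and the 1142 in all were 716 without COP control 2. Vip had a log2 change of 7.36 in COP and 2.17 in BN (difference 5.19, 95% interval 4.45 to 5.92, adjusted p = 2.24e-08). The differences of Nppc, Drd4 and Mzb1 were 3.29, 2.85 and 2.81, where the log2 changes in BN were 2.16, 2.45 and 3.09. Plaur, the receptor of the protease urokinase, had a log2 change of 4.67 in COP and 1.92 in BN (difference 2.75), and Mx1 one of 1.73 in COP and -0.97 in BN (difference 2.70). Cbr3, a carbonyl reductase, and Tcfl5, a transcription factor, differed by 2.77 and 2.64, and Cbr3 lost its call without control 1 or control 2. Among the negative differences Cartpt had a log2 change of -3.68 in COP and 0.64 in BN (difference -4.32, adjusted p = 4.95e-05). Sema3e had -4.77 in COP and -1.24 in BN (difference -3.53), and Dcn -4.22 in COP and -1.41 in BN (difference -2.81). The neuronal protein gene Olfm3, the cytochrome gene Cyp4a8, the transporter gene Abca8a, Sostdc1, an antagonist of bone morphogenetic proteins, and the proteoglycan gene Spock3 had differences of -4.11, -3.19, -3.13, -3.08 and -2.85. Plaur, Cbr3, Tcfl5, Cyp4a8, Abca8a and Spock3 were near the floor in 1 COP group. In the macrophage list 13 of 19 members had a called difference between COP and BN, against 6.94% of all genes, and the median change was 1.78 in COP, 1.90 in ACI and 0.55 in BN. Hormone subunit genes included 3 of 7 with such a difference. Log2 changes in BN were -3.61 for Lhb, -4.62 for Fshb and 0.15 for Tshb, and the differences of COP from BN were -1.93, -0.76 and -1.80. The Fshb difference lost its call after spike-in scaling (adjusted p = 0.767) and with arrays 1 and 2 alone (adjusted p = 0.0767). Of single list members chosen after their values were seen, Mki67 had a log2 change of 1.66 in COP and -0.79 in BN (difference 2.46), C1qb one of 2.96 in COP and 1.06 in BN (difference 1.90), and RT1-Ba one of 1.18 in COP and -0.24 in BN (difference 1.42, a call lost without control 2 or control 3). With limma, 0 of the 24 cholesterol and fatty acid genes and 0 of the 20 ribosomal protein genes had a called difference from either strain. At an unadjusted p under 0.05, 2 of the cholesterol and fatty acid genes differed from ACI and 5 from BN, and 0 and 0 of the ribosomal protein genes did.

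**Figure D5:**
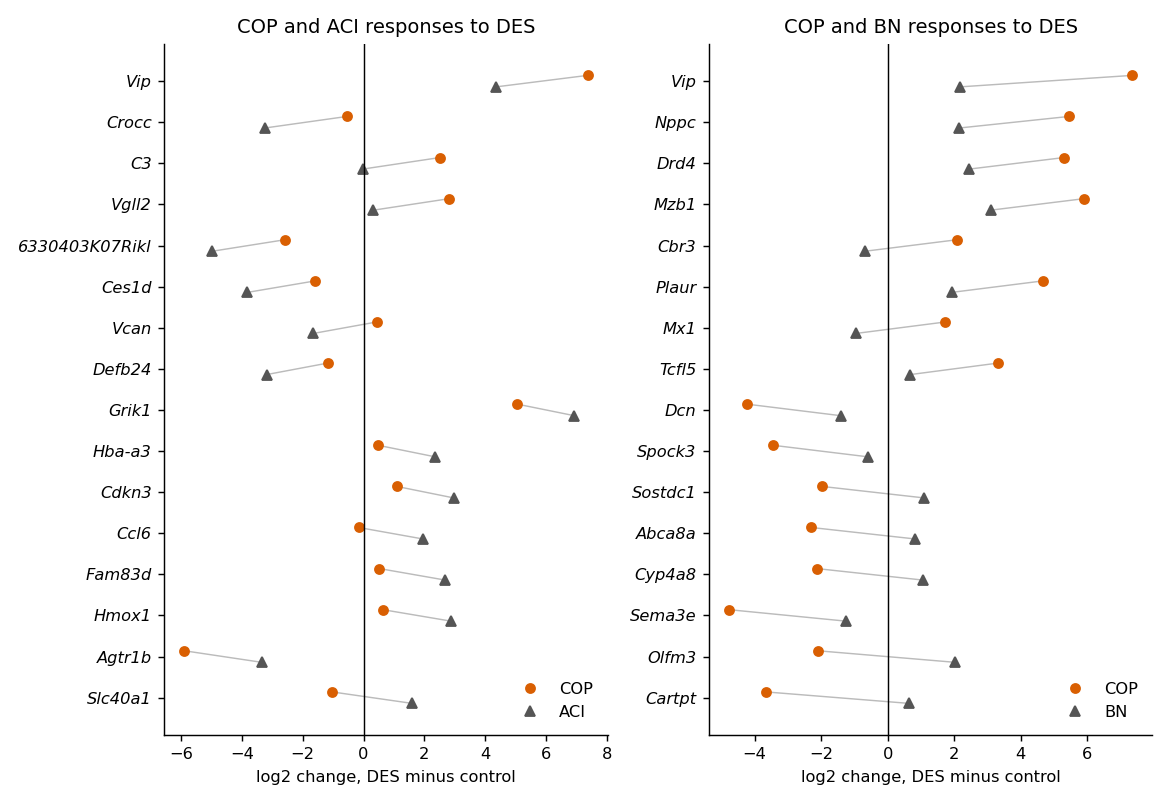
Log2 change with DES in COP (circles) and in ACI (left) or BN (right, triangles) for the 16 genes with the largest called differences in response in each comparison, sorted by that difference. Vip stands at the top of both panels, with a change of 7.36 in COP, 4.35 in ACI and 2.17 in BN.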

How the data were processed

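Anterior pituitary RNA of single male COP rats was measured on 4 DES and 3 control arrays, fitted together with the 14 ACI and BN arrays. The authors deposited 1 intensity per probe set on a linear scale (0.1 to 71813.9), with every array scaled to a trimmed mean of about 500.2. Which summarization software they used is not given in the sources used here, and values at the low end carry the error of background correction. Left out were 57 control probe sets of the manufacturer, out of 31099. Of the rest, 20826 had 1 gene symbol in the array annotation, 436 several and 9780 none, and symbols were updated through Entrez IDs.

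Signals were tested as log2(signal + 16) where they exceeded the 40th percentile on at least 3 arrays (Myc, Pvt1 and A1bg kept) with limma 3.58.1 in R 4.3.3, using 6 group means, eBayes with a trend, two-sided p and Benjamini-Hochberg adjustment over all probe sets tested. A gene stands for its probe set of highest mean signal. Families with near-identical copies (kallikreins, Serpina3, RT1, globins, ribosomal proteins) may cross-hybridize. Named were the 12 largest rises and falls without overlap, the same among genes with both means at 100 units or more, the hormone and Ept7 genes and Esr1, up to 6 members per list and those against its majority, and the 8 largest called differences in response of each sign against each strain. Members, comparisons and the 55 lists (1025 genes, 912 on the array, 811 tested) were chosen with earlier results of these data known. No array pair in COP shared more than 0.2% of equal values. Promoters came from RefSeq (GRCr8). Alternatives tried were filters, offsets, quantile and median scaling, blocks by array number, subsets of arrays, a second probe set, eBayes without trend and scaling to the spike-ins.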

Additional observations from a re-analysis of the deposited data

Results flagged for a closer look

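In 9 of 229 genes named here 1 of the 4 COP DES arrays lay far from the other 3, where about 1 in 20 groups would be picked out by chance. Array 4 was the lone one in most of them. It had 605.8 units for 6330403K07Rikl (504.2 to 510.2 on the others), 304.1 for Cd55 (454 to 480), 347 for Cyp26a1 (212.2 to 222.9), 282.4 for Gpm6a (177.3 to 179), 908.2 for Pcsk2 (1474 to 1529.7) and 363.7 for Ube2c (397.6 to 403.4). Array 1 had 219.6 units for Ghrhr (151.9 to 159.8 on the others) and 885 for Myc (618.2 to 654), and array 2 had 11.5 for Crocc (20.8 to 22.6). Apart from Crocc and Pcsk2, whose groups overlapped, these genes had no overlap with the controls.

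Differences in the response to DES between strains passed the test for 38 gene and strain pairs named in the report. Against ACI the response of COP was higher in Vip (3.01), Crocc (2.68), C3 (2.52), Vgll2 (2.49), 6330403K07Rikl (2.39), Ces1d (2.23), Vcan (2.09) and Defb24 (2.01). It was lower in Slc40a1 (-2.64), Agtr1b (-2.53), Hmox1 (-2.24), Fam83d (-2.16), Ccl6 (-2.11), Cdkn3 (-1.87), Hba-a3 (-1.87) and Grik1 (-1.87). Against BN it was higher in Vip (5.19), Nppc (3.29), Drd4 (2.85), Mzb1 (2.81), Cbr3 (2.77), Plaur (2.75), Mx1 (2.70), Tcfl5 (2.64), Mki67 (2.46), C1qb (1.90) and RT1-Ba (1.42). The response of COP was lower than that of BN in Cartpt (-4.32), Olfm3 (-4.11), Sema3e (-3.53), Cyp4a8 (-3.19), Abca8a (-3.13), Sostdc1 (-3.08), Spock3 (-2.85), Dcn (-2.81), Lhb (-1.93), Tshb (-1.80) and Fshb (-0.76), all as differences of log2 changes.

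Outside the genes, the hybridization spike-ins had a mean log2 change of 0.611 between the COP DES and COP control arrays. Gene counts with these spike-ins set equal are given beside the lists, and the cause of the spike-in change was not tested.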

How the results depend on the processing

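Over probe sets, 9419 were called for DES against control in COP. Other filters, offsets, scalings, thresholds, blocks and the 7 COP arrays alone gave 6911 to 10561, arrays numbered 3 and 4 alone gave 5776, and leaving out each COP array gave 8020 to 8817. For the response of COP minus that of ACI, 115 probe sets became 449 with arrays 1 and 2 alone, 21 with arrays 3 and 4 alone and 11 after spike-in scaling, which was chosen after seeing the data. For COP minus BN, 1142 became 457 with arrays 3 and 4 alone and 138 after spike-in scaling. Leaving out each COP array gave 50 to 95 against ACI, with the low values without control 1 (51) or control 2, and 716 to 1017 against BN. In the replicate block fit the counts were 10043 in COP, 252 against ACI and 1773 against BN, and with the sets of arrays 1 and 2 and arrays 3 and 4 as a block 10407, 283 and 1887. Same-numbered arrays shared only a number (correlations of their deviations 0.16, 0.084 and 0.14), and 2 of the 3 numbered DES arrays correlated best with the control of their own number. Fewer arrays were fitted in the settings with part of them. For other movements the cause was not tested.

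Of 5341 alternative values for the genes and responses named, 5121 stayed called in the same direction or stayed uncalled. Of the rest 196 lost the call, 13 gained one and 11 turned. After spike-in scaling Acly turned to -0.25, Gh1 to -0.10, Inha to -0.032, Npr2 to -0.0022, Pcsk2 to -0.00025, Sc5d to -0.20 and Scg2 to -0.20. Under quantile normalization Cga turned to -0.27, Gh1 to -0.15 and Scg2 to -0.30, and a second probe set of Inhba gave -0.78. For 14 genes a second probe set kept the direction but was not called. They were Acaca (-0.35), Adcyap1r1 (-0.45), Aif1 (0.86), Ccnd1 (-0.095), Cish (-0.45), Col6a3 (0.40), Enpep (-0.73) and Kcnk2 (-0.86). The others were Nr3c1 (-1.05), RT1-Ba (0.69), Rpl14 (0.27), Sc5d (0.013), Sstr1 (0.44) and Sstr2 (0.57). After spike-in scaling most called members were lower in these lists: antigen presentation (5 called, 1 higher), interferon-induced (8, 3 higher), G1 cyclins (5, 1), CDK inhibitors (5, 0), DNA replication (7, 1), granins (8, 2; 11 and 4 under quantile normalization), nucleolar (6, 2), growth factors (12, 4), calcium and sodium channels (11, 4), polyamine (8, 3), kallikreins (13, 6), G protein and cyclic AMP (15, 4). Leaving out a single COP array moved the adjusted p of limma past the threshold for the changes of Ccnd1 (without control 2, up to 0.0517), Gh1 (without DES 3, DES 4, control 1, control 2 or control 3, up to 0.0885), Hmox1 (without DES 1, DES 4, control 2 or control 3, up to 0.133), Inha (without DES 1, DES 2, control 1 or control 3, up to 0.222), Inhba (without DES 4, control 1 or control 2, up to 0.0963), Pcsk2 (without control 3, up to 0.0531), Scg2 (without control 1, control 2 or control 3, up to 0.0715), Sstr2 (without DES 1 or control 3, up to 0.138) and Tap2 (without DES 3, DES 4, control 1 or control 3, up to 0.187), and for the differences in response of 6330403K07Rikl against ACI (without control 1, up to 0.0586), Cbr3 against BN (without control 1 or control 2, up to 0.0787), Ccl6 against ACI (without DES 1, DES 2, DES 3, control 1, control 2 or control 3, up to 0.122), Crocc against ACI (without any 1 array, up to 0.163), Defb24 against ACI (without control 3, up to 0.0623), Fam83d against ACI (without control 1, up to 0.0875), Grik1 against ACI (without DES 3, control 2 or control 3, up to 0.077), Hba-a3 against ACI (without control 1 or control 2, up to 0.0791), RT1-Ba against BN (without control 2 or control 3, up to 0.0609), Vcan against ACI (without DES 1, DES 3, DES 4, control 1 or control 2, up to 0.116) and Vgll2 against ACI (without DES 1, DES 4, control 1, control 2 or control 3, up to 0.0847). Crocc against ACI therefore rests on every array.

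Precision was limited by the number of arrays, 4 and 3, and by signals near the floor, where folds are understated. Prl lost its call under quantile normalization and after spike-in scaling.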

Other observations

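Proteases of the kallikrein family and lysosomal cathepsins were among gene groups not described above, and were chosen after their values were seen, as were the other genes of this section. Of 19 kallikrein, serpin and cathepsin genes tested, 12 were higher and 5 lower with DES in COP as deposited, but 6 and 7 after spike-in scaling. Klk1, tissue kallikrein, had 155, 331, 266 and 386 units with DES, against 33.1, 62.6 and 41.2 in controls, and Klk1c9 had 173, 128, 131 and 161 with DES and 2.5, 1.3 and 33.1 in controls. Probe sets of this family may not tell its near-identical copies apart. Ctss, a cathepsin of macrophages, and Ctsd, a cathepsin known as an estrogen target, rose by 1.51 and 0.99 on the log2 scale, while Serpine2, an inhibitor of thrombin and plasminogen activators, had 158, 134, 142 and 232 units with DES and 1019, 1049 and 1114 in controls. Polyamine genes had 4 of 10 higher and 2 lower, and 3 and 5 after spike-in scaling. Srm, spermidine synthase, had 3338, 3455, 3400.4 and 3324 units with DES and 985, 928 and 896 in controls and Odc1, the first enzyme of the pathway, 7248, 8334, 7633 and 8485 and 3614, 3767 and 3275, whereas Amd1 and Sms changed by -0.81 and -0.81.

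Signaling genes downstream of receptors had 12 of 28 members higher and 6 lower in the G protein and cyclic AMP list as deposited, and 4 and 11 after spike-in scaling. Pde4d, a phosphodiesterase that degrades cyclic AMP, had 832, 1113, 1223 and 1025 units with DES, against 353, 270.1 and 337 in controls, and Adcy5, an adenylyl cyclase, had 132, 96.2, 196 and 126 with DES and 623, 566 and 498 in controls. Rgs4, which limits G protein signaling, changed by -2.52 and Rgs10 by 2.32. Immediate early genes had 6 of 18 higher and 1 lower (3 and 3 after spike-in scaling), with Dusp1, a phosphatase of mitogen-activated kinases, at 5020.0, 5514, 3821 and 5111 units with DES and 392, 665 and 1809.6 in controls. Endothelial markers had 2 of 11 higher and 2 lower (1 and 5 after spike-in scaling, and 3 and 0 under both other scalings). The share of 18.2% in each direction was below the 21.6% and 28.0% of all genes. Sox18, a transcription factor of endothelial cells, had 281, 215, 284 and 329.8 units with DES and 96.9, 32.3 and 50.9 in controls. Pericyte and smooth muscle markers had 2 of 8 higher (25%) and 1 lower (12.5%) as deposited, and 2 and 2 after spike-in scaling. Of these, Rgs5, a pericyte marker, had 326, 406, 264 and 431 units with DES, against 96.7, 102 and 101 in controls.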
